A study of Mus musculus with 12 samples.

Results

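The long acetylated domains of a mouse pancreatic cancer line are described here: 500 stretches of chromatin with the most reads for H3K27ac, acetylation of histone H3 at lysine 27. They were taken from the female KDM6A-WT line by joining its H3K27ac regions where the gap was at most 12500 bp, keeping joined stretches above 20 kb and ranking them by summed reads. The 29284 listed regions gave 17091 stretches, of which 2466 exceeded 20 kb; the leading 500 are the domains described, and the other 1966 are what they are set against. The study profiled cell lines from mouse pancreatic tumours, grown untreated in F12/DMEM medium with EGF, by chromatin immunoprecipitation and sequencing. KDM6A and MLL4 were profiled in the female KDM6A-KO and KDM6A-WT lines, and H3K4me1 in a KO and a WT line of each sex. H3K4me3, H3K27ac and H3K27me3 were profiled in the female WT line alone. KO and WT are the genotypes of the labels, but the labels of every library, WT included, also call the line one from a tumour without Kdm6a. The labels do not say how the allele was made or restored, or how many clones a line holds. Each group of antibody, sex and genotype held 1 library, so no difference within one sex has a replicate check. H3K4me1 alone has a pair of KO and WT lines in each sex, which allows a test with sex as a block. Regions were listed separately for each library.

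H3K27ac marks active promoters and enhancers. Clusters of acetylated elements that lie close together and carry much of this mark are known as super-enhancers and are often found near genes that define a cell type. Enhancers also carry H3K4me1, deposited largely by the methyltransferases MLL3 and MLL4 (KMT2D, the antigen named in the labels), whereas H3K4me3 marks promoters and H3K27me3 marks genes silenced by Polycomb. KDM6A removes methyl groups from H3K27 and is a subunit of the MLL3 and MLL4 complexes.

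The summed reads of a list ran from 108165 (MLL4, WT line) to 17526099 (H3K4me3), and H3K27ac had 7165222. The H3K4me1 lists held 6639207 reads in female KO and 9956349 in female WT, and 10809880 in male KO and 14411335 in male WT, so each KO list held fewer reads than its WT list. Reads inside listed regions are not the depth of a library, which is unknown. The KDM6A and MLL4 lists are known from an earlier look at these data to hold a surplus of regions on whole chromosomes. The surplus is on chromosomes 1, 6 and 17 in the KO line and on 15 and 19 in the WT line. Values without these 5 chromosomes are given beside the main counts of KDM6A and MLL4 regions and of H3K4me1. A stretch with no listed region may still carry the mark below the listing threshold, which is not given in the sources used here. Intervals in brackets are 95% exact Clopper-Pearson intervals over domains or regions, which are not replicates; they cover counting error only.

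The 500 domains spanned 34.3 Mb, or 1.34% of the span of the listed chromosomes. They held 10.3% of the H3K27ac regions, 19.9% of the acetylated length and 25.9% of the H3K27ac reads, as the ranking by reads makes them do. Their length ran from 20.8 kb through a median of 63.0 kb to 237.6 kb, against a median of 29.2 kb for the other domains. The reads per domain ran from 2085 through a median of 3147 to 15372, against a median of 891 in the other domains. A domain held between 1 and 25 H3K27ac regions, with a median of 5.5, and 17 domains were a single unbroken region. H3K27ac regions filled 67.1% of the length of the 500 domains and 52.0% of that of the others; the rest is gap between joined regions. The limit of 500 falls on no step in the data. The domains ranked 498 to 500 held 2089, 2087 and 2085 reads, and those ranked 501 to 503 held 2084, 2081 and 2078 reads. A curve of reads by rank reaches the slope used to separate super-enhancers from typical ones at a point that depends on the stretches ranked. That point left 279 domains among those above 20 kb, and 1120 stretches when those of any length were taken. The limit of 500 lies between these counts. The set of 279 domains is the one used for the slope point below.

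**Figure D1:**
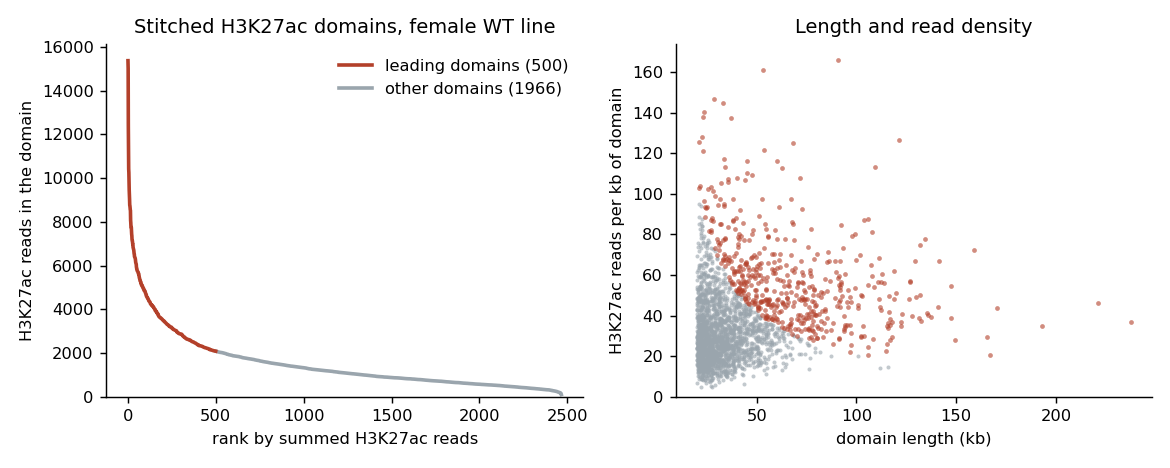
Left, H3K27ac reads per joined domain of the female WT line (y axis, reads) by rank (x axis); right, H3K27ac reads per kb of domain (y axis) by domain length (x axis, kb), with the 500 leading domains in red and the other 1966 in grey. Reads fall steeply over the first ranks and pass 2085 at rank 500 without a step; the leading domains include short dense ones as well as long ones of lower density.

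Short dense domains and long sparse ones were both among the 500. Density ran from 20.4 to 166 reads per kb of domain, with a median of 53.8, against a median of 28.5 in the other domains. The domain of rank 1, chr15:101145801-101267200 (mm9), was 121.4 kb long with 6 H3K27ac regions and 15372 reads. Rank 2, chr11:86381001-86471600, held 15014 reads in 90.6 kb from 3 regions. Rank 14, chr17:71055401-71108600, was a single region of 53.2 kb with 8557 reads. Rank 11, chr2:167483801-167721400, was the longest of the 500, with 22 regions and 8755 reads in 237.6 kb. The leading 10 also held chr15:74749001-74858400, chr2:179882201-180041000, chr6:30982801-31117000, chr3:122014401-122235600, chr9:63491801-63623800, chr5:100963601-101104800, chr19:38028001-38134000 and chr15:101803401-101907200, in rank order from 3 to 10. Of these 10 domains, 3 lay on chromosome 15.

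The domains were spread unevenly over the chromosomes. Chromosome 11 held 55 of them, chromosome 7 held 50 and chromosome 1 held 46. Relative to the listed span, chromosome 11 led with 46.3 domains per 100 Mb, followed by chromosome 19 with 41.3, chromosome 17 with 34.7 and chromosome 7 with 33.5. Chromosome X held 25 joined domains above 20 kb, and 0 of them reached the leading 500. H3K27ac reads per kb of acetylated region also differed by chromosome. They were 71.6 on chromosome 19 and 70.5 on chromosome 15, the highest of the 20 chromosomes, and 46.1 on chromosome X, the lowest; their part in the ranking was not tested. The domains on chromosome 15 had a median of 4742 reads. Of the 481 pairs of neighbouring domains on one chromosome, 45 were within 50 kb of each other and 64 within 100 kb. The median gap was 1634.4 kb and the smallest was 12.6 kb, just over the joining distance.

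Since the rule did not leave out promoters, the promoter mark was read first. H3K4me3 regions lay in 500 of the 500 domains, where 96.4% of all 2466 domains held one. H3K4me3 covered 33.9% of the length of the 500 domains and 25.8% of that of the others. Per domain it covered 2.05% to 96.6% of the length, with a median of 34.7%, against a median of 25.2% in the others. The longest H3K4me3 cover was in rank 93, chr13:23514801-23680400, where it filled 100.6 of 165.6 kb. The lowest share was in rank 454, on chromosome 2. Of the 3019 H3K27ac regions inside the 500 domains, 63.8% [62.1 to 65.5] overlapped both H3K4me3 and H3K4me1 of the female WT line. A further 27.6% [26.0 to 29.2] overlapped H3K4me1 alone, 2.29% [1.78 to 2.88] H3K4me3 alone and 6.29% [5.45 to 7.22] neither. The regions with both marks had a median length of 7400 bp and those with H3K4me1 alone 3000 bp.

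The name super-enhancer therefore holds for these domains only by the joining rule: each one contains promoter-marked chromatin, and they are called leading H3K27ac domains here. With H3K27ac regions that overlap H3K4me3 left out before joining, 10249 regions remained. They formed 264 domains above 20 kb, which overlapped 62 of the 500. No gene was assigned to any domain, because no annotation of the build mm9 was used here.

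The repressive mark was scarce inside the domains. H3K27me3 regions touched 79 of the 500 domains, or 15.8% [12.7 to 19.3], where 17.4% of all 2466 domains were touched, a share near the background. They covered 1.52% of the length of the 500 domains and 3.75% of that of the other domains. The longest H3K27me3 cover was 47.2 kb, in rank 11, followed by 31.6 kb in rank 48, chr11:69689001-69815400. In rank 352, chr19:5004201-5119000, it was 29.0 kb. Counting only H3K27me3 regions whose midpoint lay inside a domain lowered the share to 11%.

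The H3K4me1 lists were then used to ask how much of the enhancer mark these WT domains kept in the KO lines. In the female lines H3K4me1 covered 22.1 Mb, or 64.4%, of the domains in KO and 23.5 Mb, or 68.4%, in WT, a KO over WT ratio of 0.942. In the male lines it covered 22.9 Mb, or 66.6%, in KO and 24.4 Mb, or 71.0%, in WT, a ratio of 0.938. Over the other 1966 domains the ratio was 0.883 in the female and 0.890 in the male lines. Over the whole H3K4me1 lists it was 0.671 in the female lines, from 153.5 Mb in KO and 228.7 Mb in WT. In the male lines the whole lists gave 0.759, from 196.6 Mb in KO and 259.1 Mb in WT. The covered length in the domains was thus a few percent lower in KO than in WT, while the whole lists differed by more. The domains were chosen by a mark of the female WT line; H3K27ac of the KO lines is not analysed here.

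Within the 500 domains, the length without H3K4me3 gave a KO over WT ratio of 0.886 in the female and 0.871 in the male lines. In domains formed anew without promoter-marked regions the difference was larger. In the 264 domains formed without H3K4me3-marked regions, of which 68 overlap a leading domain, the KO over WT ratio of covered length was 0.705 in the female and 0.741 in the male lines, close to that of the whole lists. Keeping equal numbers of regions in both lists of a pair, by reads, the ratio in the 500 domains was 0.988 in the female and 0.955 in the male lines.

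Domain by domain, the KO over WT ratio had a median of 0.965 in the female lines, and the lowest and highest 10% of domains lay beyond 0.577 and 1.41. In the male lines the median was 0.955 and these limits were 0.644 and 1.28. Female KO had less H3K4me1 cover than female WT in 274 of 498 domains, where 55.3% of all domains had less, and more in 219, where 43.5% had more. In 5 it was the same, and 2 domains with no H3K4me1 region in female WT have no ratio. Male KO had less than male WT in 300 of 500 domains, where 57.6% of all domains had less, and more in 190, where 40.2% had more. These splits lay near those of all domains. A ratio under 0.5 was found in 37 of 498 domains in the female lines, 7.43% [5.28 to 10.1], where 15.7% of all domains with a ratio had one. In the male lines 17 of 500 domains were under 0.5, 3.40% [1.99 to 5.39], where 9.58% of all domains were. A ratio over 2 was found in 16 domains in the female lines, where 6.52% of all domains had one. It was found in 4 in the male lines, against a background of 3.22%. Large differences in either direction were thus a smaller share of the leading domains than of all domains in both sexes. The leading domains are also the longer ones, and the part of length in this was not tested. With sex as a block, limma fitted over all 2466 domains on log2 of covered kb plus 1 called 0 of the 500 domains, and 0 of all, at an adjusted p under 0.05 after Benjamini-Hochberg adjustment. At an unadjusted p under 0.05 there were 17 lower and 4 higher in KO among the 500, and 185 and 57 among all. This fit has 1 residual degree of freedom, and an exact permutation test within 2 pairs of lines cannot go below p = 0.5. Missing the threshold does not show that the genotypes are alike.

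**Figure D2:**
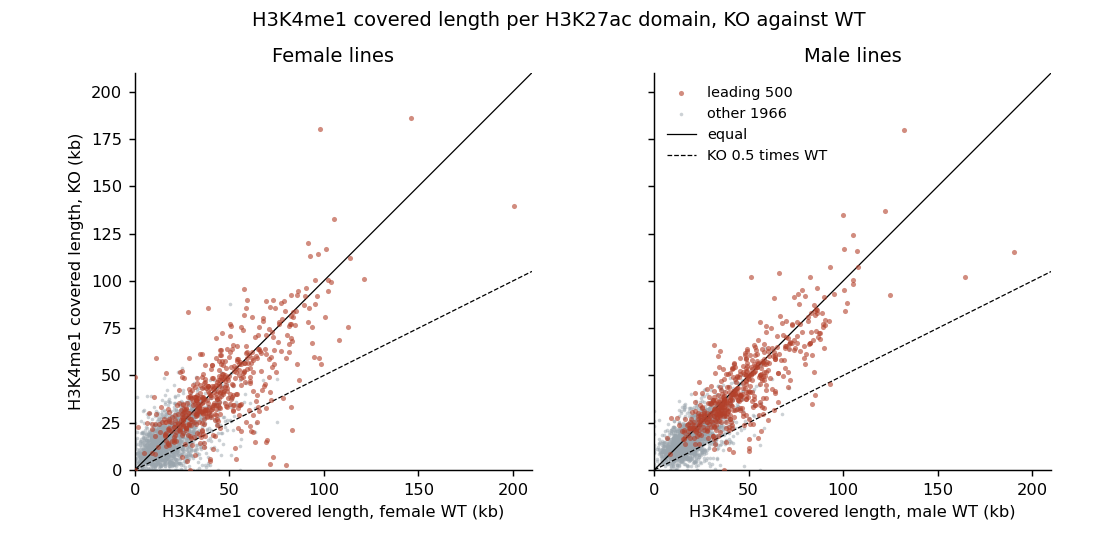
H3K4me1 covered length per joined H3K27ac domain in the KO line (y axis, kb) against the WT line of the same sex (x axis, kb), 1 point per domain, with the 500 leading domains in red and the other 1966 in grey. Most red points lie near the line of equality; 37 in the female and 17 in the male lines lie below the dashed line at 0.5 times WT.

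The sexes shared part of the pattern. Both KO lines had less H3K4me1 cover than their WT lines in 202 of 500 domains, where 37.9% of all domains did. Both had more in 121, where 23.9% did. In 68 domains the female KO line was lower and the male KO line higher than WT, where 15.8% of all domains were so, and in 95 the reverse held, where 18.9% did. These counts too lay near the background. The KO minus WT differences in covered length had a Pearson correlation of 0.41 and a Spearman correlation of 0.42 between the sexes across the 500 domains. The other domains gave 0.41 and 0.38. All points share the choice of domains from one WT line, so these are descriptions. In 6 domains the ratio was under 0.5 in both sexes, where 4.49% of all domains were.

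H3K4me1 regions inside the leading domains mostly had a counterpart in the other genotype. Of the female WT regions there, 85.4% [84.1 to 86.6] had an overlapping female KO region, against 80.7% in the other domains and 41.2% outside all domains above 20 kb. Of the male WT regions, 89.5% [88.4 to 90.5] had an overlapping male KO region, against 87.8% in the other domains and 52.0% outside. All 4 H3K4me1 lists had a region in 496 of the 500 domains. By length, 45.7% of the 34.3 Mb was covered in all 4 lists and 14.0% in none, against 32.1% and 21.5% in the other domains. The domains held 18.2% of the H3K4me1 reads of the female KO list and 13.5% of those of the female WT list. They held 15.8% of the reads of the male KO list and 12.6% of the male WT list.

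Cutting the domains into bins of 200 bp showed where inside them the mark differed. Acetylated bins with H3K4me3 made up 33.0% of the length. There H3K4me1 covered 89.7% in female KO and 88.8% in female WT, and 92.5% in male KO and 90.4% in male WT. Acetylated bins without H3K4me3 made up 34.1%. They were covered to 69.0% in female KO and 76.5% in female WT, and to 75.9% in male KO and 83.8% in male WT. Gaps without H3K4me3 made up 32.0% and were covered to 32.8% in female KO and 38.4% in female WT, and to 29.3% in male KO and 37.1% in male WT. The KO over WT ratio was highest in promoter-marked bins and lowest in gaps in both sexes. It was 1.01, 0.902 and 0.853 over the 3 classes in the female lines, and 1.02, 0.905 and 0.790 in the male lines. The other domains had the same order, with 0.989, 0.832 and 0.796 in the female and 1.05, 0.850 and 0.726 in the male lines. In the gaps with H3K4me3, which were 0.937% of the length, KO was above WT, at 86.6% and 74.3% in the female and 88.3% and 77.0% in the male lines.

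**Figure D3:**
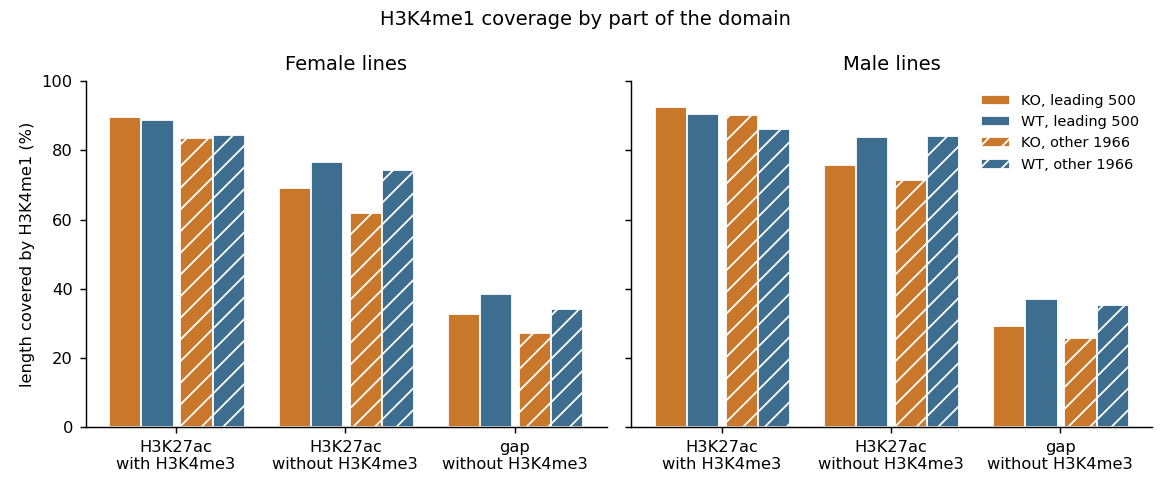
Share of length covered by H3K4me1 regions (y axis, percent) in KO (orange) and WT (blue) lines of each sex, for 3 classes of 200 bp bins; plain bars are the 500 leading domains and hatched bars the other 1966. KO and WT bars are level in acetylated bins with H3K4me3, 89.7% and 88.8% in the female lines, and KO bars are lower in the other 2 classes.

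Domains sorted by their H3K4me3 share, in 4 groups of 125, gave the same picture. From the lowest to the highest share, the KO over WT ratio of H3K4me1 covered length was 0.885, 0.965, 0.939 and 0.994 in the female lines. It was 0.873, 0.907, 0.982 and 1.02 in the male lines. Of the 37 female domains under 0.5, 28 lay in the group of the lowest H3K4me3 share, 2.05% to 25.6% of the length. Of the 17 male ones, 11 lay in that group and 6 in the next. The 37 female domains had H3K4me3 on 22.3% of their length, against 34.9% for the other 463.

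Chromosomes also differed in the female lines. The 48 domains on chromosomes 15 and 19 were covered by H3K4me1 to 62.9% in female KO and 78.0% in female WT, a ratio of 0.806, while the male lines gave 0.972 there. The 108 domains on chromosomes 1, 6 and 17 gave 1.01 in the female and 0.912 in the male lines. The 344 domains on the other 15 chromosomes gave 0.946 in the female and 0.940 in the male lines, close to the values over all 500. Chromosomes 1, 6, 15, 17 and 19 are those with a surplus of KDM6A and MLL4 regions. The part of that surplus in the difference was not tested.

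Single domains differed far more than the totals. Among the leading 10, rank 3 on chromosome 15 had 55.8 kb of H3K4me1 in female KO and 98.6 kb in female WT, but 82.8 kb in male KO and 83.2 kb in male WT. Rank 5 on chromosome 6 had 75.8 kb in female KO and 112.8 kb in female WT, and 98.2 kb in male KO and 105.2 kb in male WT. Rank 6, chr3:122014401-122235600, went the other way in both sexes. It had 180.2 kb in female KO and 97.8 kb in female WT, and 180.0 kb in male KO and 132.2 kb in male WT. The other 7 of the leading 10 differed between KO and WT by at most 16 kb in either sex.

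In the female lines, 3 of the domains with the largest difference kept under 7 kb of H3K4me1 in KO. In rank 160, chr2:24262601-24378600, H3K4me1 covered 2.8 kb in female KO and 80 kb in female WT; the male lines had 60 kb in KO and 64 kb in WT. In rank 349, chr12:106066401-106157400, it covered 3.0 kb in female KO and 71.8 kb in female WT, and 10 kb in male KO and 50.2 kb in male WT. Rank 349 thus had less cover in KO in both sexes, while rank 160 was nearly the same in both male lines. In rank 464, chr12:81882401-81960800, it covered 6.8 kb in female KO and 73.0 kb in female WT, and 67.2 kb in male KO and 72.8 kb in male WT. Rank 11, the longest domain, had 139.6 kb in female KO and 200.4 kb in female WT, and 115.0 kb in male KO and 190.2 kb in male WT, the male domain with the largest deficit in KO. Next among the male lines came rank 34, chr5:91022801-91215800, with 102.2 kb in male KO and 164.6 kb in male WT. There the female lines went the other way, with 186.2 kb in KO and 146.2 kb in WT. In rank 133, chr7:108120201-108215800, the cover was 34.8 kb in male KO and 83.4 kb in male WT, and 33.4 kb in female KO and 65.0 kb in female WT.

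Other domains had more cover in KO. Rank 70, chr12:82716401-82815600, had 49.4 kb in female KO and no listed H3K4me1 region in female WT, with 40.6 kb in male KO and 21.4 kb in male WT. Rank 35, chr17:21585801-21717600, had 85.8 kb in female KO and 38.6 kb in female WT, and 102.0 kb in male KO and 51.2 kb in male WT, the largest male excess in KO. Rank 370, chr5:87138401-87214200, had 59.0 kb in female KO and 11.4 kb in female WT, and 54.6 kb in male KO and 42.6 kb in male WT. Ranks 6, 35, 70 and 370 thus had more H3K4me1 cover in KO than in WT in both sexes. Rank 140, chr11:120519801-120669400, had 83.4 kb in female KO and 28.2 kb in female WT, but 64.4 kb in male KO and 74.6 kb in male WT.

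The 6 domains under 0.5 in both sexes were ranks 238, 319, 328, 349, 470 and 493, none of them above rank 238. Rank 238, chr11:82852001-82930600, had 7.0 kb in female KO and 25 kb in female WT, and no listed region in male KO against 37.2 kb in male WT. Rank 328, chr4:144537601-144608600, had 5.8 kb in female KO and 53.8 kb in female WT, and 24.6 kb in male KO and 52.2 kb in male WT. Rank 319, chr11:88460001-88506600, had 11 kb in female KO and 41.2 kb in female WT, and 9.4 kb in male KO and 41.6 kb in male WT. H3K4me3 covered 5.63% to 24.5% of the length of these 6 domains, below the median of the 500.

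**Figure D4:**
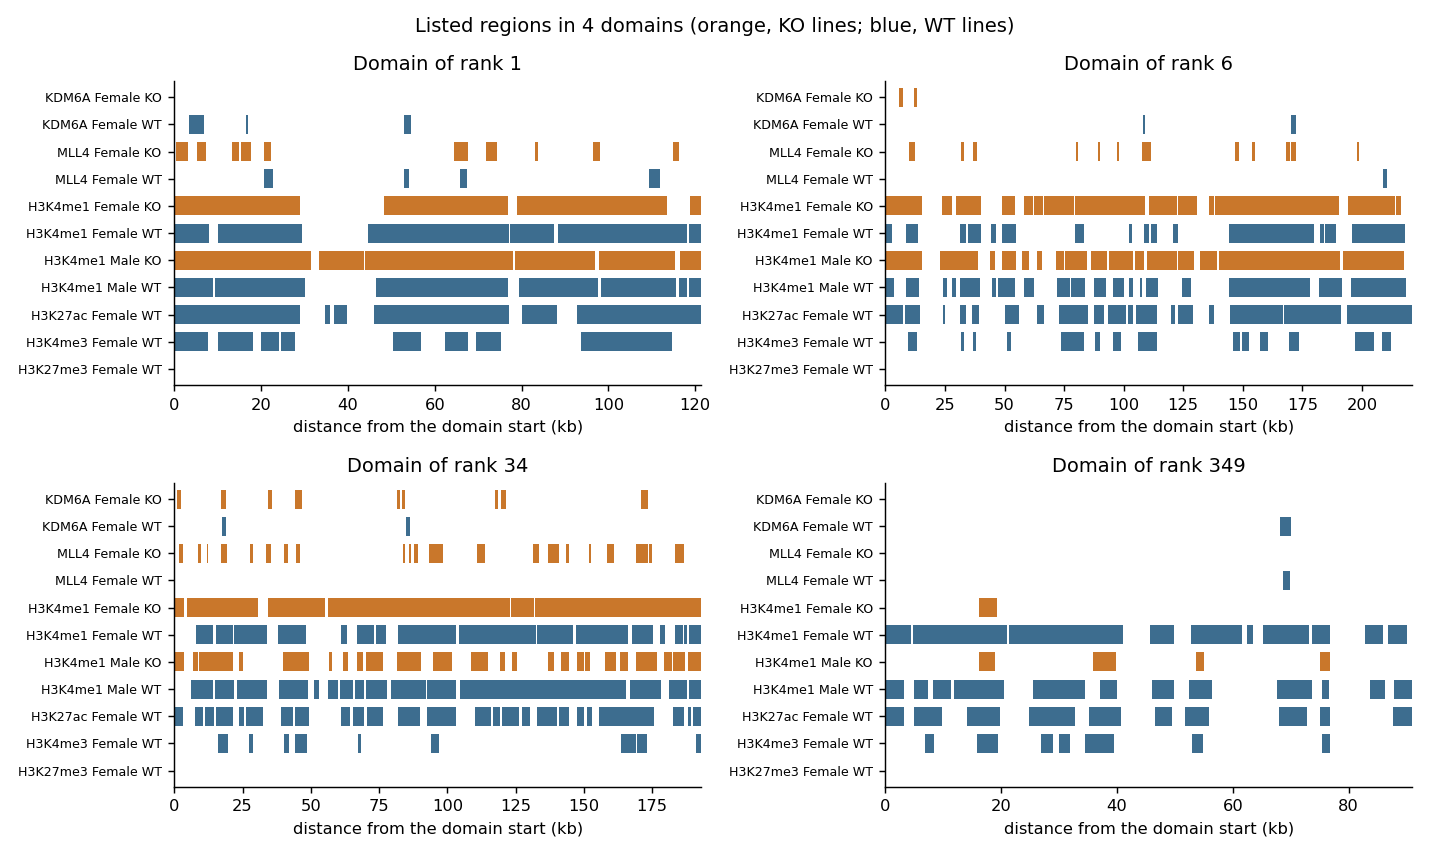
Listed regions along 4 leading domains (x axis, distance from the domain start in kb), 1 row per list, with KO lines in orange and WT lines in blue. H3K4me1 fills rank 6 more fully in both KO lines (180.2 and 180.0 kb) than in WT, is nearly gone from rank 349 in female KO (3.0 kb), and in rank 34 is longer in female KO and shorter in male KO than in WT; rank 34 also holds 21 MLL4 regions in KO and 0 in WT.

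MLL4 was read in the female lines only. A MLL4 region lay in 432 of the 500 domains in KO, 86.4% [83.1 to 89.3], where 58.6% of all 2466 domains held one. In WT it lay in 211, 42.2% [37.8 to 46.7], where 21.6% of all domains held one. Both shares were above the background. The domains held 1476 MLL4 regions in KO and 304 in WT, or 43.0 and 8.86 per Mb, against 31.1 and 5.87 per Mb in the other domains. Among those others, the domains ranked 501 to 1000 held 35.1 per Mb in KO and 8.35 in WT, the latter close to the leading 500. KO had more regions than WT in 381 domains, where 51.6% of all domains did. Regions were listed in both lines in 192 domains, where 16.9% of all domains were, and in neither in 49, where 36.6% were. In 240 domains they were listed in KO alone, where 41.8% of all domains were, and in 19 in WT alone, where 4.74% were. The whole list was also larger in KO, with 13152 regions against 2130 in WT. Keeping equal numbers of regions in both lists, by reads, the share of domains with a MLL4 region was 49.4% in KO and 42.2% in WT. Without the 5 chromosomes of surplus, 84.6% of 344 domains held one in KO and 39.2% in WT, from 871 and 184 regions, with KO alone in 169 and WT alone in 13.

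Regions of the short WT list of MLL4 often met a KO region inside the domains, while few KO regions met one of WT. Of the 1476 KO regions in the leading domains, 13.7% [12.0 to 15.5] met a WT region, against 8.50% [7.31 to 9.82] in the other domains and 2.65% [2.34 to 2.99] outside. Of the WT regions in the leading domains, 63.2% [57.5 to 68.6] met a KO region, against 43.4% [38.3 to 48.6] in the other domains and 17.1% [15.2 to 19.2] outside. The most MLL4 regions of KO lay in rank 34 on chromosome 5, with 21 in KO and 0 in WT. Rank 65, chr3:121304001-121439800, followed with 13 in KO and 2 in WT. The most of WT lay in rank 64, chr15:78625401-78715000, with 2 in KO and 6 in WT. Rank 1 held 10 in KO and 4 in WT.

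KDM6A was listed in both lines. The KO line is taken as the background of this antibody. A KDM6A region lay in 223 domains in KO, 44.6% [40.2 to 49.1], where 26.9% of all domains held one. In WT it lay in 178, 35.6% [31.4 to 39.97], where 19.3% of all domains did. The domains held 405 regions in KO and 251 in WT, or 11.8 and 7.31 per Mb, against 10.4 and 5.43 per Mb in the other domains. Among those others, the domains ranked 501 to 1000 held 11.3 per Mb in KO and 7.47 in WT. The density of KDM6A regions was thus not particular to the leading 500. Both lines had a region in 102 domains, where 8.15% of all domains did, and neither in 201, where 62% did. KO had more regions than WT in 152 domains, where 21.1% of all domains did. KO alone had one in 121, where 18.7% of all domains did, and WT alone in 76, where 11.2% did. The KO list was the longer one, with 5961 regions against 2847 in WT. Keeping equal numbers of regions in both lists, by reads, the share of domains with a KDM6A region was 29% in KO and 35.6% in WT, so the direction turned with the length of the list.

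Of the KDM6A regions of WT in the leading domains, 19.9% [15.2 to 25.4] met a KO region, against 13.6% [10.2 to 17.7] in the other domains and 7.06% [6.04 to 8.20] outside. Much of the KO excess was on the chromosomes of surplus. These chromosomes were picked from the same KDM6A and MLL4 lists, so the contrast between them follows from that choice and is no separate result. The 108 domains on chromosomes 1, 6 and 17 held 28.5 KDM6A regions per Mb in KO and 6.83 in WT. The 48 domains on chromosomes 15 and 19 held 9.68 per Mb in KO and 15.4 in WT. Without these 5 chromosomes the lists came to 171 regions in KO and 149 in WT, with a region in 36.3% and 32.0% of the domains, in KO alone in 65 and in WT alone in 50. Rank 5 on chromosome 6 held 10 KDM6A regions in KO and 1 in WT. Rank 183, chr6:149078401-149144200, held 9 in KO and 0 in WT. The most KDM6A regions of WT were in rank 9 on chromosome 19, with 3 in KO and 5 in WT.

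**Figure D5:**
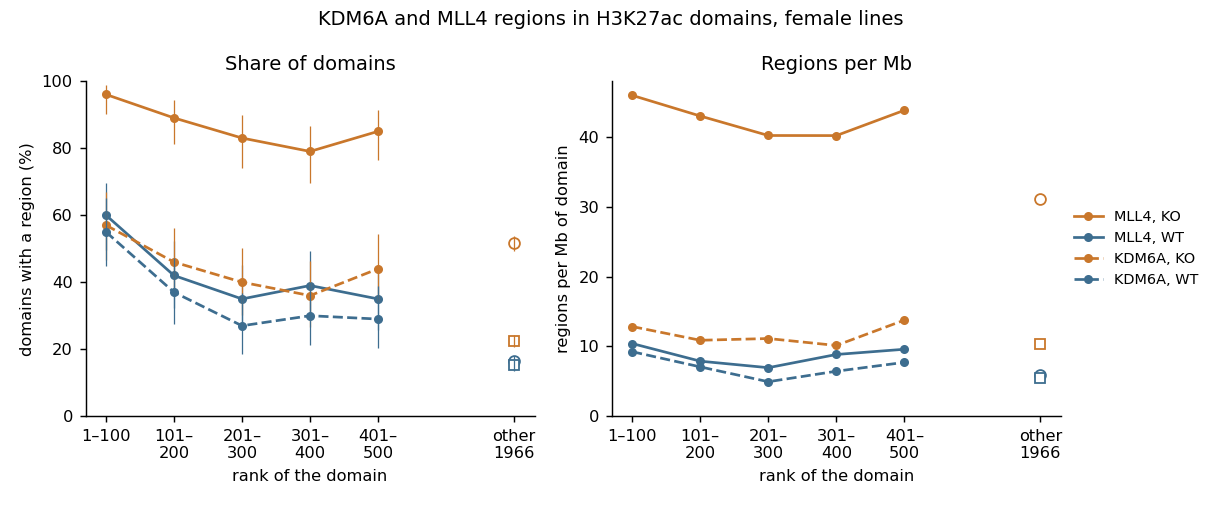
Left, share of domains with at least 1 KDM6A or MLL4 region (y axis, percent, with 95% exact intervals); right, regions per Mb of domain (y axis); the x axis gives 5 groups of 100 leading domains by rank and, as open symbols, the other 1966 domains. MLL4 in KO lies above the other 3 lists throughout, at 96% of ranks 1 to 100 and 85% of ranks 401 to 500.

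The listed MLL4 and KDM6A regions followed the rank only in part. A MLL4 region of KO lay in 96, 89, 83, 79 and 85 of 100 domains over the 5 groups of ranks from the top. One of WT lay in 60, 42, 35, 39 and 35. For KDM6A the numbers were 57, 46, 40, 36 and 44 in KO and 55, 37, 27, 30 and 29 in WT. The first 100 were the longest, with a median length over 100 kb. Per Mb, MLL4 in KO stayed between 40.2 and 45.9 and MLL4 in WT between 6.96 and 10.4. In domains of 40 to 60 kb, MLL4 regions numbered 50.5 per Mb in KO and 9.21 in WT over 155 leading domains, against 27.7 in KO and 6.57 in WT over 353 other domains. At 20 to 40 kb the 78 leading domains held 71.9 MLL4 regions per Mb in KO and 14.8 in WT, against 32.9 and 5.72 in 1561 others. Without the 5 chromosomes, the 109 leading domains of 40 to 60 kb held 41.1 per Mb in KO and 8.75 in WT, against 20.6 and 5.09 in 252 others. The higher density of MLL4 in leading domains was thus also seen at similar length. The 78 leading domains of 20 to 40 kb had H3K4me3 on 51.3% of their length, against 26.7% in the 1561 others. The 155 leading domains of 40 to 60 kb had it on 36.8%, against 25.1% in the 353 others.

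The listed MLL4 and KDM6A regions lay mostly on the promoter-marked parts. Acetylated bins with H3K4me3, 33.0% of the length, held 81.5% of the MLL4 covered length in KO and 88.6% in WT. They held 71.7% of the KDM6A covered length in KO and 75.3% in WT. Relative to their length these bins held 2.47 times their share of MLL4 in KO and 2.68 times in WT, against 2.66 and 2.83 times in the other domains. For KDM6A they held 2.17 times their share in KO and 2.28 times in WT, against 2.14 and 2.51 times in the other domains. The KO line is the background of the KDM6A antibody, and in the leading domains the WT value lay close to it. The gaps, 32.9% of the length, held 2.20% of the MLL4 covered length in KO and 1.58% in WT, and 6.79% and 5.01% for KDM6A. Without the 5 chromosomes the promoter-marked bins held 85.0% of the MLL4 covered length in KO and 89.5% in WT, and 77.9% of that of KDM6A in KO and 74.5% in WT. Of the KDM6A regions in the domains, 3 of 405 in KO and 2 of 251 in WT overlapped H3K27me3. In the other domains 9 of 660 in KO and 7 of 345 in WT did. Of the MLL4 regions in the leading domains, 8 of 1476 in KO and 1 of 304 in WT did. H3K27me3 covered 1.52% of the length of the leading domains, so few overlaps were possible for either antibody.

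Regions of both antibodies were listed in part of the domains, with those of KDM6A in KO being the background of its antibody. Both had a region in 215 domains in KO, where 23.6% of all domains had both, and in 113 in WT, where 9.49% did. Among domains with a KDM6A region, 96.4% in KO and 63.5% in WT also held MLL4; among those without, 78.3% in KO and 30.4% in WT did. In the other 1966 domains these shares were 83.4% and 40.6% with KDM6A, and 42.4% and 12.05% without. MLL4 was thus also listed more often there in domains that held KDM6A, at any distance within the domain. Leading domains with KDM6A in KO had a median length of 66.8 kb, against 60.2 kb without. For KDM6A in WT these medians were 71.6 and 58.6 kb, and the part of length was not tested. Without the 5 chromosomes the leading domains gave 96.8% in KO and 58.2% in WT with KDM6A, and 77.6% and 30.3% without. KDM6A without MLL4 was listed in 8 domains in KO and 65 in WT.

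H3K4me1 cover was set beside the MLL4 and KDM6A regions. The 68 domains with no MLL4 region in female KO had H3K4me1 on 45.5% of their length in female KO and 64.2% in female WT, a ratio of 0.709. The 432 with one had 67.1% in female KO and 69.0% in female WT, a ratio of 0.973. In the male lines, which had no MLL4 list used here, the same sets gave 0.830 and 0.952. Without the 5 chromosomes of surplus the ratio was 0.673 over 53 domains without MLL4 in KO and 0.988 over 291 with it in the female lines. In the male lines those sets gave 0.784 and 0.965. H3K4me3 covered 32.5% of the length of the 68 domains and 34.2% of that of the 432. Domains with a KDM6A region in WT gave a female ratio of 0.899, against 0.974 for those without one. Without the 5 chromosomes these were 0.911 and 0.968. Domains with a KDM6A region in KO, the background of this antibody, went the other way, at 1.003 against 0.888 for those without one. Domains with a MLL4 region in WT gave 0.905, against 0.977 for those without one. For both antibodies the female ratio was thus lower with a WT region and higher with a KO region. Of the 37 domains under 0.5 in the female lines, 64.9% held MLL4 in KO and 37.8% in WT, against 88.1% and 42.5% of the other 463. These sets were formed from lists of 1 library each, and the differences were not tested.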

How the data were processed

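The 11 deposited lists give a chromosome, start, end and a whole number per region, used here as the count of reads, judging by its values and by SICER's output format, since no header names it. The submitters' processing notes name mm9, SICER 1 and Bowtie 1.1.2 without a role. The control library, threshold and mapped reads are not given in the sources used here. Starts count from 0; positions are printed from 1. Counts ranked domains and regions within a list and were not compared as levels between libraries.

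H3K27ac regions were joined, ranked and overlapped (minimum 1 bp) with pandas 2.3.3, numpy 2.4.6 and scipy 1.17.1 under Python 3.11.15. Overlaps were checked with bedtools 2.31.1 and the counting on simulated data. Covered length is the part of a domain inside listed regions; domains with none in WT have no ratio. With 1 library per group, lists were described by counts and shares beside all domains above 20 kb, with no test. Added after seeing the data, limma 3.58.1 under R 4.3.3 tested genotype with sex as a block on log2 of covered kb plus a pseudocount of 1 over all domains above 20 kb. Domains named are the leading 10, those at the limit of 500, those with the largest H3K4me1 differences in each direction, ratios under 0.5 in both sexes, the most KDM6A or MLL4 regions, and the longest H3K4me3 or H3K27me3 cover; the text gives some of them. Domains with no region in at least 1 H3K4me1 list were also counted as named. Rank 14 is also among those with the most KDM6A regions in KO. Rank 454 was named after its value was seen. The members, lists and the 5 chromosomes left out were chosen with earlier results of these data known. Alternatives were 5 kb joining, H3K4me3-marked regions left out, ranking by reads per kb, 250 or 1000 domains, the slope point, autosomes alone, the 5 chromosomes left out, lists of equal number and midpoint overlap. Sequences and gene names of the domains were not used here.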

Additional observations from a re-analysis of the deposited data

Results flagged for a closer look

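In 10 of the 54 named domains, the KO minus WT difference in H3K4me1 covered length had opposite signs in the sexes. These domains include some picked for large H3K4me1 differences and some just outside the leading 500, so they are no sample of all domains. With 1 library per group the difference between the sexes was not tested. Rank 1 gave a KO minus WT difference of -7.6 kb in the female lines and 16 kb in the male lines. Rank 34 gave 40 kb in the female and -62.4 kb in the male lines. Rank 140 gave 55.2 kb in the female and -10.2 kb in the male lines. Rank 19 gave 11.4 kb in the female and -1.8 kb in the male lines, and rank 48 gave 26.6 and -5.2 kb. Rank 65 gave 15.4 kb in the female and -17 kb in the male lines, and rank 183 gave -9.2 and 6.8 kb. At the limit of 500, rank 500 gave 5.2 kb in the female and -2.8 kb in the male lines; just outside it, rank 501 gave 1 and -11.8 kb and rank 502 gave -1.6 and 3.6 kb. Over all 500 domains, opposite signs were found in 68 domains with the female KO line lower, where 15.8% of all 2466 domains were so. They were found in 95 with the male KO line lower, where 18.9% of all domains were so. Both counts lay near the background.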

How the results depend on the processing

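No paired analysis was possible within one sex, because the compared groups share a single replicate number, with 1 library each. Pairing the H3K4me1 lines by sex, an alternative added after seeing the data, called 0 domains. The 10 results were recomputed under the alternatives that apply to each; 52 values stayed near the reported one and 41 moved. A ratio counted as moved when it changed by over 0.1, a limit set after the values were seen. A count moved past 1.5 times, and a share past its interval. The limit of 0.1 is wider than the distance of the H3K4me1 ratios from equal cover, so a ratio within it need not keep its deficit. With lists of equal number these ratios went from 0.942 to 0.988 in the female and from 0.938 to 0.955 in the male lines, within the limit. The KO over WT ratios of H3K4me1 moved only with H3K4me3-marked H3K27ac regions left out, to 0.705 in the female and 0.741 in the male lines. That setting left 264 domains, with 102 female and 69 male domains under 0.5, KDM6A in 18.6% in KO and 10.98% in WT, MLL4 in 37.9% in KO and 7.58% in WT, and H3K27me3 in 8.71%. Domains under 0.5 numbered 12 female and 4 male among 250 domains, 98 and 50 among 1000, and 15 and 6 above the slope point. Such counts were not scaled to the number of domains in a set, so part of their movement follows from its size. Without the 5 chromosomes 10 male domains were under 0.5. The KDM6A share in KO was 35.6% with 5 kb joining, 36.8% ranked by reads per kb, 50% in 250 and 37% in 1000 domains, 36.3% without the 5 chromosomes and 29% with lists of equal number. In WT it was 30%, 29.8%, 41.6% and 30.2% under the first 4 of these and 40.5% above the slope point. The MLL4 share in KO was 79.6%, 78.4%, 92.4% and 76.2% under those 4, 89.96% above the slope point and 49.4% with lists of equal number. In WT it was 35.2%, 36.6%, 48.8% and 34.6%, and 47.7% above the slope point. The H3K27me3 share was 7.20% with 5 kb joining, 11.2% by reads per kb and 11% by midpoint. The order of KO and WT was kept in all of these except KDM6A with lists of equal number, where KO was at 29% and WT at 35.6%. Library depth is unknown, so a missing region cannot be told apart from a weak one.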
